A study of Homo sapiens with 9 samples.

Results

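The integrin subunits of keratinocytes were followed in the HaCaT line, a spontaneously immortalised line of human epidermal keratinocytes, on 9 whole-genome arrays. The 10 genes listed were ITGA2, ITGA3, ITGA4, ITGA5, ITGA6, ITGAV, ITGB1, ITGB4, ITGB5 and ITGB6, and every probe set annotated to them was taken. A probe set is the group of short oligonucleotides on the array that reports 1 transcript region. Of the 54613 probe sets other than controls, 27 carried the symbol of 1 of these genes and no other, and they covered 9 of the 10. Another 4 list ITGB6 together with LINC02478, so they name no single gene and are given apart. The array annotation named 19775 genes in all.

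The 3 lines were the parental HaCaT line, HaCaT cells stably expressing GFP-tagged wild type β-actin (WT-actin cells), and a line that carries this fusion with an added nuclear import signal, so that the tagged actin is also in the nucleus (NLS-actin cells). Each line was measured on 3 arrays, numbered 1 to 3 in the labels. The paper calls them experimental replicates but does not state whether they came from separate cultures. The p values therefore measure only the spread between these arrays. Each construct was represented by 1 stable line, selected by drug resistance and carrying GFP, whereas parental cells carried neither. The effect of a construct and a difference between lines therefore cannot be told apart. Comparison of NLS-actin cells with both other lines asks which transcripts differ when actin is directed to the nucleus, and WT-actin cells serve as the control for actin overexpression.

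Integrins are receptors of 1 α and 1 β subunit that bind extracellular matrix on the outside of the cell and connect to actin, or in hemidesmosomes to keratin filaments, on the inside. The β1 subunit pairs with many α subunits. In basal keratinocytes α2β1 binds collagen, α3β1 binds laminin-332 and α5β1 binds fibronectin, while α6 pairs mainly with β4 in the hemidesmosome. The αv subunit pairs with β5 and β6 to bind vitronectin, fibronectin and latent TGF-β. The α4 subunit is best known from leukocytes and melanocytes, where α4β1 binds fibronectin and VCAM1. Because the α subunits compete for β1 and set the ligand, a change in 1 α subunit relative to the others changes the set of receptors a cell could assemble, although mRNA does not give surface protein.

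The signals are MAS5 intensities, linear values in arbitrary units that the authors scaled to a common trimmed mean on each array. Array medians lay between 29.7 and 43.3. An array of each line (replicate 2 of parental cells, replicate 1 of WT-actin, replicate 2 of NLS-actin) stood apart on the same side of the first axis of deviation from line means, an axis that held 47.4% of the variance within lines, with scores of 0.346, 0.475 and 0.532 against scores between -0.387 and -0.0883 for the other 6 arrays. WT-actin replicate 1 also had a ratio of 3′ to 5′ GAPDH control signal, a sign of RNA quality, of 3.07, against 1.39 to 1.95 on the others. Changes of ITGA4 in NLS-actin cells are given with and without these 3 arrays, and other values where leaving them out reversed a sign. Calls outside ITGA4 are given only with them. The keratinocyte markers KRT5, KRT14, DSG3, DSC3 and SFN, the 5 measured of 7 listed, were all above the median on all 9 arrays, with a summed signal of 31198 to 42386 in parental cells, 38540 to 54076 in the WT-actin line and 44710 to 49572 in NLS-actin cells.

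The sequences just upstream of 2 of the genes are shown because ITGA4 carried the change described next and ITGB1 encodes its usual partner. They are RefSeq sequences of the build GRCh38.p14, written 5′ to 3′ on the strand of the gene. Capitals mark GC boxes, GGGCGG or its complement CCGCCC.
ITGA4, chr2:181457136-181457204, plus strand: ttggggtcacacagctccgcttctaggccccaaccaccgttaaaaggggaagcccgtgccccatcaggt
ITGB1, chr10:32958231-32958480, minus strand: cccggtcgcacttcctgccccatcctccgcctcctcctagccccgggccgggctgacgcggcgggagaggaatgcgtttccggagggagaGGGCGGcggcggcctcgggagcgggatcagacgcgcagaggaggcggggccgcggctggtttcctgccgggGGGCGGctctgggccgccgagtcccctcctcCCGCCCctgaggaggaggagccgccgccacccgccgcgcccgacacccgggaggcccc
The ITGB1 stretch held 3 GC boxes in 250 bases at 78.4% G and C, and the ITGA4 stretch held none in 69 bases at 60.9%. Promoter windows from 250 bases before to 50 after the start were at hand for 8 of the genes, 13 windows in all. On either strand, GGGCGG was in 8 of these 13, against 45.0% of 35116 promoters. The CArG box, the element read by the actin-regulated factor SRF, was in 1 of the 13, a window of ITGB6, against 1.29% of promoters. The AP-1 element TGAGTCA was in 1 window, of ITGA5, against 4.95%, and TATAAA was in 2, of ITGA6 and ITGB1, against 11.5%. The motifs were searched as spelled, and a match describes letters in a window, not a site.

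ITGA4 was lower in NLS-actin cells than in either other line, and its 4 probe sets moved together. On 243366_s_at, the brightest of the gene, the signals were 1185, 1011 and 971 in parental cells, 1537, 1310.15 and 1189 in the WT-actin line, and 426, 315 and 424 in NLS-actin cells. All 3 NLS-actin arrays lay below all 6 others, at a mean of 388 ± 63.6 (SD, n = 3) against 1056 ± 114 in parental cells and 1345 ± 176 in WT-actin cells. The fall was 2.73-fold against parental cells (log2 fold change -1.45, SE 0.19, adjusted p = 0.00995 by limma) and 3.48-fold against WT-actin cells (log2 fold change -1.80, adjusted p = 0.000701 by limma).

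The other 3 probe sets of ITGA4 gave the same picture at other signal levels. On 213416_at the signals were 1056, 727 and 964 in parental cells, 645, 999 and 885 in the WT-actin line, and 277, 124 and 354 in NLS-actin cells. On 205885_s_at they were 274, 231 and 296, then 271, 324 and 248, then 84.3, 84.6 and 109.6 in the same order of lines. On 205884_at they were 197, 126 and 171, then 154, 188 and 165, then 36.8, 27.2 and 57.0. On each probe set the 3 NLS-actin arrays were the lowest of the 9, and NLS-actin replicate 2 was the lowest on 3 of the 4.

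**Figure D1:**
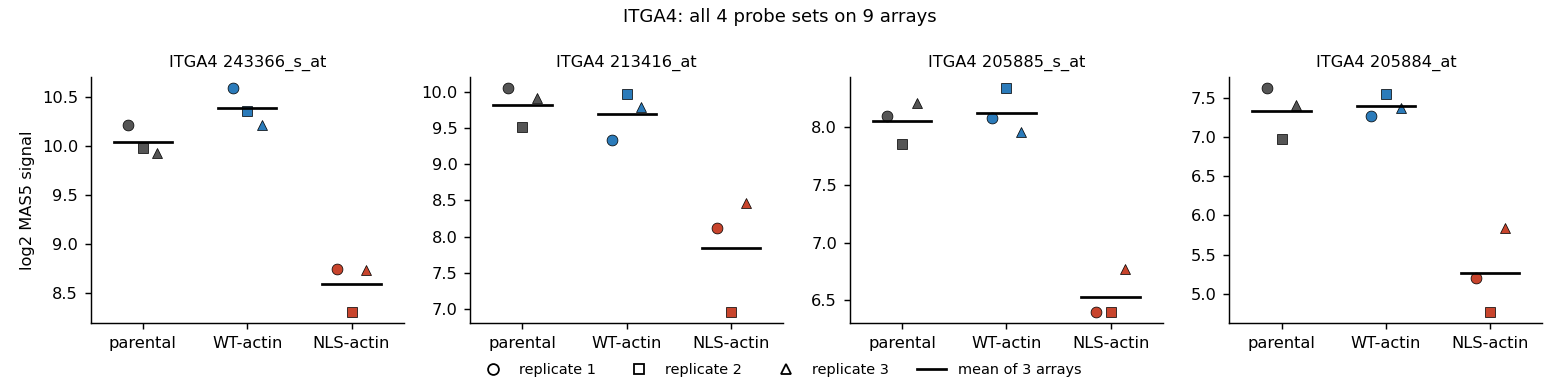
Log2 MAS5 signal of the 4 ITGA4 probe sets on the 9 arrays, grouped by line, with 1 symbol per replicate number and a line at the mean of the 3 arrays. The vertical scale differs between panels. On every probe set the 3 NLS-actin arrays lie below the 6 parental and WT-actin arrays.

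Against parental cells, the log2 fold changes of the 4 probe sets were -1.45, -1.97, -1.53 and -2.07, in the order above. Adjusted p values by limma were 0.00995, 0.0536, 0.0433 and 0.0476, so 3 of the 4 passed 0.05 and 213416_at narrowly did not. Residuals of same-numbered parental and NLS-actin arrays correlated at 0.150, 0.663 and 0.209, most for replicate 2, and a pairing by number is not established. When replicate number entered the fit of these 2 lines as a block all 4 passed, with adjusted p values of 0.00105, 0.000741, 0.00839 and 0.0111 by limma. All 4 also passed with that block in a fit of all 9 arrays (adjusted p of 0.00993 to 0.0442 by limma), and 2 of the 4 with a block over all 9. Against WT-actin cells the log2 fold changes were -1.80, -1.85, -1.60 and -2.13, and all 4 passed (adjusted p = 0.000701, 0.0297, 0.0101 and 0.0130 by limma).

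WT-actin cells stayed near parental cells. Their log2 fold changes against parental cells were 0.35, -0.13, 0.07 and 0.05 on the 4 probe sets, with adjusted p values of 0.835 to 0.989 by limma. On 243366_s_at alone the 3 WT-actin arrays all lay above the 3 parental arrays, with the closest pair at 1189 and 1185. The order of levels on that probe set was therefore WT-actin cells, parental line, NLS-actin cells, and the step between the first pair had an SE of 0.19 and missed the threshold (unadjusted p = 0.0877 by limma).

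Without the 3 arrays that stood apart, the log2 fold changes against parental cells were -1.34, -1.69, -1.57 and -2.00 (adjusted p = 0.0433, 0.0171, 0.111 and 0.0944 by limma). The call on 243366_s_at was lost without parental replicate 1 (adjusted p = 0.127) or parental replicate 3 (adjusted p = 0.0646), at log2 fold changes of -1.36 and -1.51 in the same limma model. Against WT-actin cells its call held in all 21 alternatives run, with a highest p of 0.0448 in limma without the intensity trend, and without the 3 arrays the 4 values were -1.55, -1.59, -1.56 and -1.94 (adjusted p = 0.00679, 0.00866, 0.0481 and 0.0461 by limma).

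The melanocyte and leukocyte markers were examined beside ITGA4, since these cells also express α4. Of the 5 melanocyte genes measured, MLANA, TYR and TYRP1 were below the array median on all 9 arrays, PMEL lay between 15.8 and 74.7, and MITF, at 1695 to 2700, made up most of the summed signal. The sum was 2507 to 2770 in parental cells, 1776 to 2352 in the WT-actin line and 1743 to 2485 in NLS-actin cells, so it was lower in both actin lines than in parental cells. Of the 4 leukocyte genes, 3 were below the median on every array, and the sum was 48.0 to 123 in parental cells, 31.7 to 52.3 in the WT-actin line and 90.8 to 172 in NLS-actin cells. The sums of parental and NLS-actin cells overlapped. Among the leukocyte genes only CD14 passed an adjusted p of 0.05 by limma. Its signals were 76.2, 119 and 35.6 in parental cells, 13.8, 25.3 and 16.6 in the WT-actin line, and 94.0, 139.7 and 84.9 in NLS-actin cells. WT-actin arrays were the 3 lowest, while NLS-actin and parental arrays overlapped. The log2 fold change of CD14 was 2.53 between NLS-actin and WT-actin cells (adjusted p = 0.0484 by limma), 0.60 between NLS-actin and parental cells (adjusted p = 0.888 by limma) and -1.93 between WT-actin and parental cells (adjusted p = 0.374 by limma). CD2, below the median on all 9 arrays, went the other way between the actin lines without overlap (log2 fold change -3.02, unadjusted p = 0.0215, adjusted p = 0.503 by limma). In that comparison PTPRC was at -1.56 and CD3E at 0.81, both with overlap. Fibroblast and endothelial markers, 6 and 4 measured, had COL1A1 as their 1 gene above the median on all arrays. All samples came from the HaCaT line or lines made from it. A change in the share of cells that express a gene and a change in RNA per cell cannot be told apart in these bulk samples.

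Across all integrin probe sets, the calls were those of ITGA4. Between NLS-actin cells and parental cells 3 of 27 passed an adjusted p of 0.05, against 0.0769% of all probe sets. With the replicate block 5 of 27 passed, against 0.835%. Between NLS-actin and WT-actin cells 4 of 27 passed, against 0.364%, and between WT-actin cells and parental cells none did, against 0.103% (limma, with 3 of the 27 at an unadjusted p under 0.05, against 5.98% of all). All 4 probe sets of 1 gene account for these counts, apart from 1 ITGB1 probe set with the block, and probe sets of a gene are not independent.

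The study's thresholds, which ask for a p under 0.05 before adjustment together with more than a 2-fold difference, were passed by 5 of 27 between NLS-actin cells and parental cells, against 3.6% of all probe sets, and by 5 of 27 between NLS-actin and WT-actin cells, against 4.67%. In both cases these were the 4 of ITGA4 and the ITGB1 probe set 215879_at, all lower. Between WT-actin cells and parental cells 1 of 27 passed, the ITGB1 probe set 216178_x_at, against 3.2%. The arrays of NLS-actin and parental cells did not overlap for 11 of 27 probe sets, against 13.2% of all. Of these, 9 were lower in NLS-actin cells, against 8.23% of all, and 2 higher, against 4.96%. Counts for WT-actin and parental cells were 5 of 27 against 12.3%. For NLS-actin and WT-actin cells they were 8 of 27 against 12.1%, all lower in NLS-actin cells, against 5.23% lower over all. The 4 probe sets of ITGA4 are in both counts of NLS-actin cells, and probe sets of a gene are not independent.

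The median log2 fold change of the 27 probe sets was -0.14 between NLS-actin cells and parental cells, against -0.06 for all probe sets. It was 0.05 against -0.11 between WT-actin cells and parental cells, and -0.26 against 0.03 between NLS-actin and WT-actin cells. Quantile normalization moved the median of all probe sets between WT-actin and parental cells from -0.11 to -0.01, so changes of about that size in this comparison depend on the scaling.

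**Figure D2:**
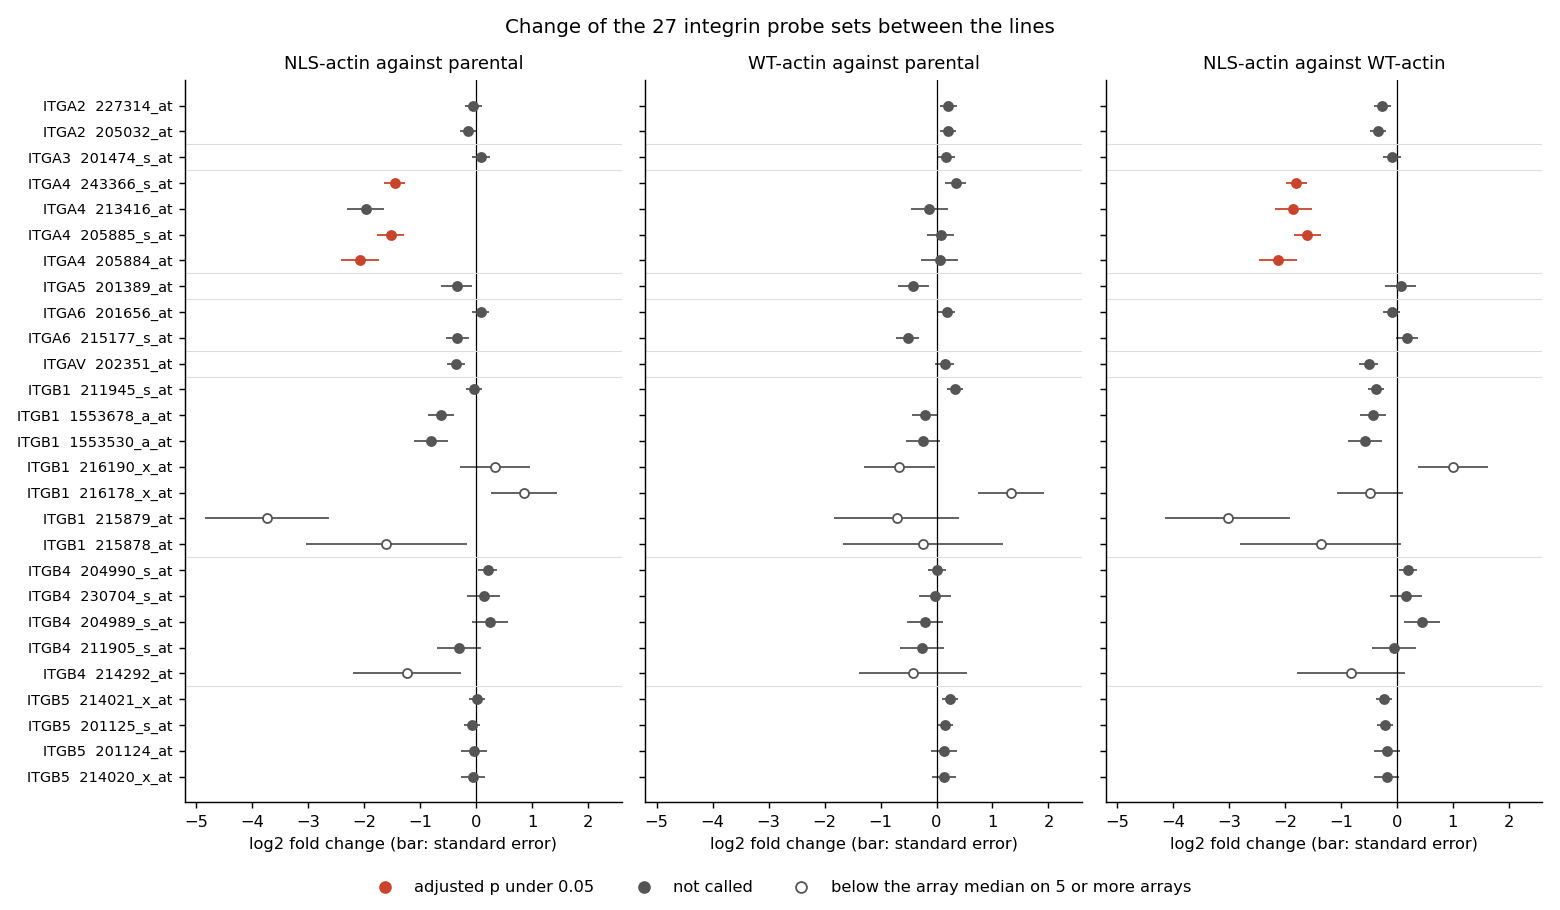
Log2 fold change of each of the 27 integrin probe sets (points) with its standard error (bars) in the 3 comparisons, ordered by gene and, within a gene, by mean signal. Red marks an adjusted p under 0.05, which only ITGA4 probe sets reached, 3 against parental cells and 4 against WT-actin cells, and open circles mark probe sets below the array median on 5 or more arrays.

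The shift between α partners was measured within each array, as the log2 ratio of the brightest ITGA4 probe set to the brightest probe set of each other α gene. Only the change of such a ratio between lines has a meaning, since probe sets differ in brightness. From parental cells to NLS-actin cells the ratio of ITGA4 fell by 1.40 to ITGA2, by 1.54 to ITGA3, by 1.10 to ITGA5, by 1.54 to ITGA6 and by 1.09 to ITGAV on the log2 scale. These are inequalities of 2.13-fold to 2.90-fold, and for all 5 the 3 NLS-actin ratios lay below the 3 parental ratios. From WT-actin cells to NLS-actin cells the ratio fell by 1.54, 1.71, 1.87, 1.70 and 1.29, again without overlap. The exact permutation test, two-sided, gave p = 0.1 for each of these 10 differences, the smallest p that 3 arrays against 3 allow, and 0.164 after adjustment over the 18 differences of 6 pairs. All of these ratios share the ITGA4 probe set already described as lower, so they are not independent and largely repeat its fall. The partners' own log2 fold changes against parental cells on these probe sets were -0.36 to 0.09 in NLS-actin cells.

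ITGAV, the αv subunit, gave 4816, 4098 and 4868 in parental cells, 5654, 5469 and 4199 in the WT-actin line and 3579, 3100 and 4088 in NLS-actin cells. The NLS-actin arrays were the 3 lowest, and the closest pair was 4088 against 4098. The log2 fold change was -0.36 against parental cells (adjusted p = 0.778 by limma) and -0.51 against WT-actin cells (adjusted p = 0.362 by limma). The log2 ratios of ITGA4 to ITGAV were -2.02, -2.02 and -2.33 in parental cells and -3.07, -3.30 and -3.27 in NLS-actin cells, so they stayed well apart.

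From parental cells to WT-actin cells the ratio of ITGA4 to the other α subunits differed by 0.14 to 0.76, and the arrays of the 2 lines overlapped for all 5 partners (exact permutation p of 0.3 to 0.5, two-sided). The 0.76 for ITGA5 came with log2 WT-actin ratios of 2.13, 1.67 and 0.58, so the 3 arrays of that line disagreed.

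**Figure D3:**
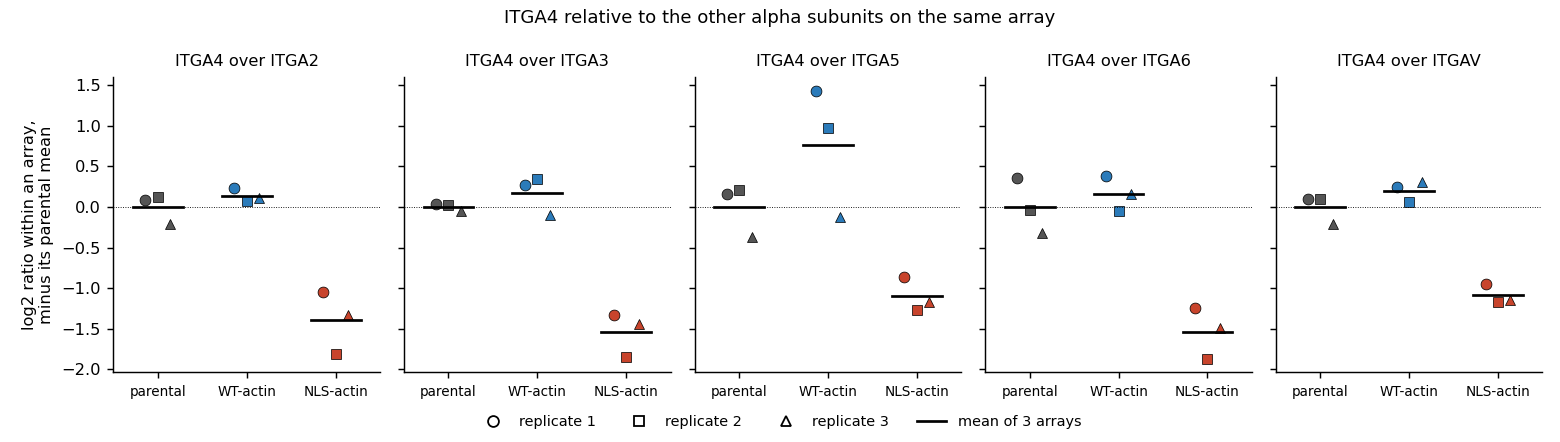
Log2 ratio of ITGA4 to ITGA2, ITGA3, ITGA5, ITGA6 and ITGAV on the same array, each with its parental mean subtracted, so that 0 (dotted) is the parental mean. Points are arrays, with 1 symbol per replicate number, and lines are means of 3 arrays. The NLS-actin means lie between -1.54 and -1.09, below both other lines in each panel.

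ITGB1 encodes the β1 subunit, and its 7 probe sets did not move as 1. On 211945_s_at, the brightest, the signals were 6995, 6390.4 and 7111 in parental cells, 8937, 8475 and 8392 in the WT-actin line, and 6957, 5536 and 7612 in NLS-actin cells. NLS-actin and parental arrays overlapped (log2 fold change -0.04, SE 0.14, adjusted p = 0.982 by limma), while the 3 WT-actin arrays were the highest of the 9. The log2 fold change of WT-actin cells against parental cells was 0.33 (unadjusted p = 0.0383, adjusted p = 0.817 by limma), and that of NLS-actin against WT-actin cells was -0.37 (unadjusted p = 0.0231, adjusted p = 0.517 by limma).

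The next 2 in brightness, 1553678_a_at and 1553530_a_at, were lower in NLS-actin than in parental arrays. The first gave 1463, 1223 and 1507 in parental cells, 941, 1089.5 and 1704 in the WT-actin line, and 1087, 711 and 942 in NLS-actin cells. The second gave 598, 502 and 629, then 359, 366 and 884, then 361, 282 and 346 in the same order. On both, the 3 NLS-actin arrays lay below the 3 parental arrays, and WT-actin replicates 1 and 2 lay near the NLS-actin arrays while WT-actin replicate 3 was the highest of all 9.

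The log2 fold changes of NLS-actin cells against parental cells were -0.63 for 1553678_a_at (adjusted p = 0.666 by limma) and -0.81 for 1553530_a_at (adjusted p = 0.681 by limma). With the replicate block the adjusted p values were 0.0612 and 0.0389, so 1553530_a_at passed in that fit of 6 arrays, while 211945_s_at stayed at 0.942. It did not pass with a block for the same lines in the fit of all 9 arrays (adjusted p = 0.618 by limma), nor with a block over all 9 (adjusted p = 0.568 by limma). Against WT-actin cells their log2 fold changes were -0.42 and -0.57 (adjusted p = 0.729 and 0.710 by limma), and without WT-actin replicate 3 they were -0.17 and -0.15. Without that replicate the changes of WT-actin against parental cells went from -0.21 to -0.46 for 1553678_a_at and from -0.23 to -0.66 for 1553530_a_at.

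Within an array, 1553530_a_at fell relative to 211945_s_at by 0.77 on the log2 scale from parental cells to NLS-actin cells, and 1553678_a_at by 0.59, with no overlap of arrays in either case. From parental cells to WT-actin cells the values were -0.57 and -0.54, with overlap, and from WT-actin to NLS-actin cells they were -0.20 and -0.05. The exact permutation p, two-sided, was 0.1 for the first 2 values, the smallest this design allows, and 0.36 after adjustment over 9 differences. Which part of the transcript each probe set reads was not examined.

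The remaining 4 ITGB1 probe sets were dim, below the array median on 6, 8, 9 and 9 of the 9 arrays. The 215879_at signals were 17.6, 15.1 and 18.2 in parental cells, 9.12, 11.3 and 10.7 in the WT-actin line, and 0.669, 9.36 and 0.327 in NLS-actin cells. It passed the study's thresholds against parental cells at a log2 fold change of -3.74 (unadjusted p = 0.00515, adjusted p = 0.464 by limma), and 2 NLS-actin arrays under 1 unit set the size of that value. With an offset of 8.08 units added before log2 the same change was -1.20. The 216178_x_at signals were 7.79, 26.9 and 15.3 in parental cells, 32.5, 54.6 and 29.1 in the WT-actin line and 23.5, 37.2 and 22.0 in NLS-actin cells, the opposite direction. The 216190_x_at signals were 32.1, 15.1 and 38.6 in parental cells, 10.5, 17.1 and 26.3 in the WT-actin line and 48.8, 46.8 and 16.6 in NLS-actin cells. Those of 215878_at were 3.03, 11.4 and 0.897, then 5.62, 9.54 and 0.348, then 0.871, 0.517 and 2.43. Both overlapped between all lines.

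**Figure D4:**
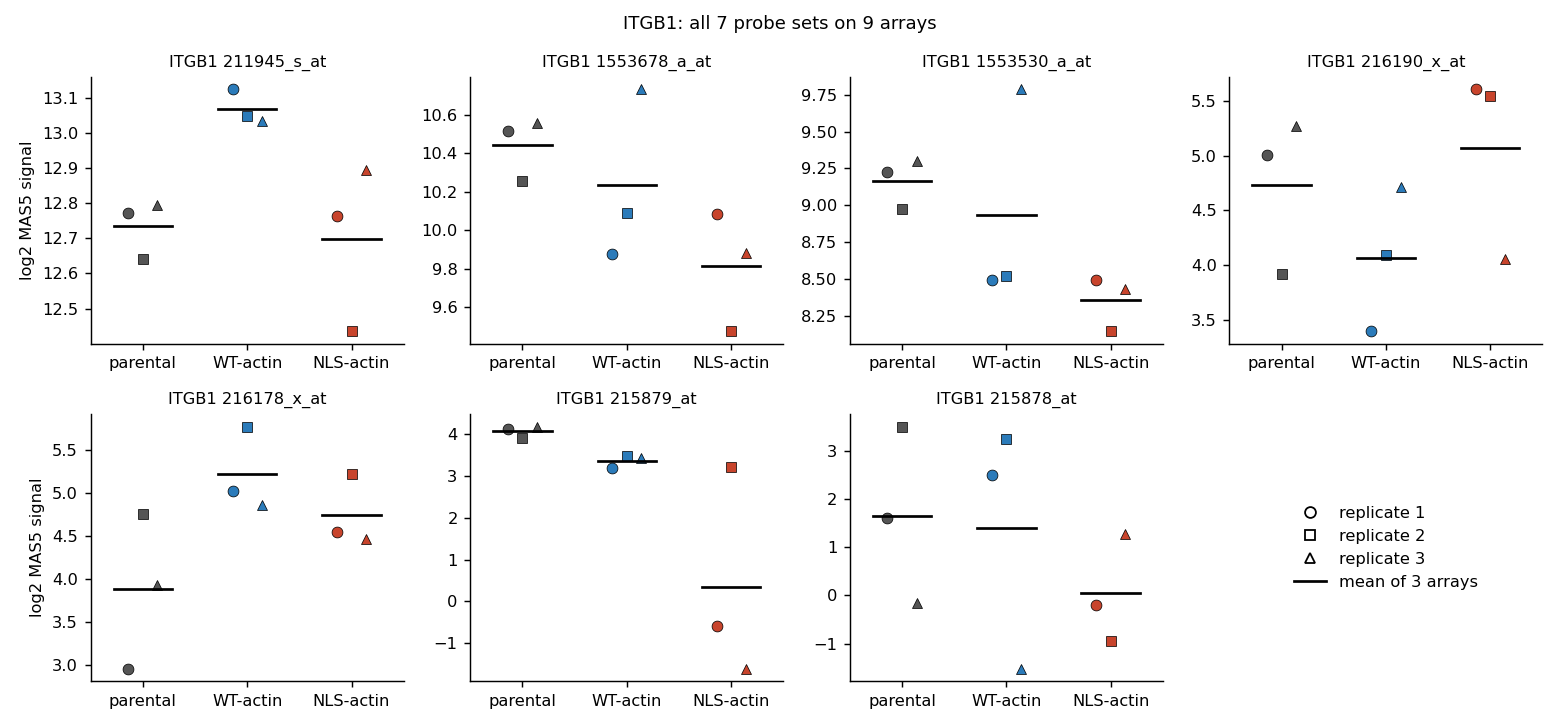
Log2 MAS5 signal of the 7 ITGB1 probe sets on the 9 arrays, grouped by line, with 1 symbol per replicate number and a line at the mean of the 3 arrays. The vertical scale differs between panels. NLS-actin arrays overlap the parental arrays on 211945_s_at, lie below them on 1553678_a_at and 1553530_a_at, and on the dim 215879_at 2 of them lie under 1 unit.

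ITGA2, the collagen-binding α2 subunit, was measured by 2 probe sets. On 227314_at the signals were 4010, 3315 and 4018 in parental cells, 4692, 4464 and 3927 in the WT-actin line, and 3157, 3963 and 3813 in NLS-actin cells, and all lines overlapped. On 205032_at NLS-actin cells, at 2983 to 3198, lay below WT-actin cells, at 3781 to 4190, with a log2 fold change of -0.34 (unadjusted p = 0.0349, adjusted p = 0.583 by limma). Against parental cells the values of NLS-actin cells were -0.05 and -0.14.

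ITGA3, the laminin-332 receptor subunit, has 1 probe set, which gave 946, 811 and 822 in parental cells, 1037, 840.3 and 1036 in the WT-actin line, and 872, 923 and 939 in NLS-actin cells. All lines overlapped. The log2 fold changes were 0.09, 0.17 and -0.09 in the 3 comparisons, each with SE 0.17, and none passed (adjusted p of 0.901 to 0.960 by limma).

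ITGA5, the fibronectin receptor subunit, gave 652, 541 and 772 in parental cells, 350.0, 411 and 796 in the WT-actin line, and 477, 467 and 591 in NLS-actin cells. Both actin lines overlapped parental cells. The log2 fold change was -0.35 for NLS-actin cells and -0.42 for WT-actin cells against parental cells (adjusted p = 0.884 and 0.862 by limma). WT-actin replicates 1 and 2 were the lowest 2 arrays and replicate 3 the highest of the 9, and without WT-actin replicate 3 the second value was -0.77 (adjusted p = 0.342 by limma).

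ITGA6, the hemidesmosomal α6 subunit, was measured by 2 probe sets, and neither passed in any comparison. Their log2 fold changes against parental cells had opposite signs, but those of the brighter were small. The brighter, 201656_at, gave 5364, 6039 and 7019 in parental cells, 6864, 7849 and 6167 in the WT-actin line, and 5879, 6694 and 6923 in NLS-actin cells, with log2 fold changes of 0.09 and 0.18 against parental cells and overlap throughout. The dimmer, 215177_s_at, gave 683, 628 and 552, then 374, 385 and 559, then 490.4, 522 and 458. It was lower than in parental cells in NLS-actin cells, without overlap (log2 fold change -0.34, adjusted p = 0.850 by limma), and in WT-actin cells (log2 fold change -0.52, unadjusted p = 0.0248, adjusted p = 0.794 by limma), where replicate 3 overlapped the parental arrays. Within an array the 2 probe sets differed in their change by -0.42 for NLS-actin cells and -0.70 for WT-actin cells against parental cells, both with an exact permutation p of 0.2, two-sided.

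Across probe sets, WT-actin replicate 3 stood above replicates 1 and 2 on ITGB1 1553530_a_at and 1553678_a_at, ITGA5, ITGA6 215177_s_at and ITGB4 230704_s_at. The 3′ to 5′ GAPDH ratio of these 3 arrays was 3.07, 1.52 and 1.39, and with this ratio as a covariate the change of WT-actin cells on 1553530_a_at went from -0.23 to -0.02. Its part in these differences was not tested.

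ITGB4 encodes the β4 subunit, which anchors keratin filaments in the hemidesmosome. Its brightest probe set, 204990_s_at, gave 1892, 2242 and 2141 in parental cells, 2252, 1684 and 2442 in the WT-actin line, and 2355, 2588 and 2295 in NLS-actin cells. The 3 NLS-actin arrays lay just above the 3 parental arrays, at a log2 fold change of 0.21 (SE 0.17, adjusted p = 0.885 by limma). The probe set 204989_s_at also did not overlap, with a log2 fold change of 0.25 (adjusted p = 0.932 by limma). The values of 230704_s_at, 211905_s_at and the dim 214292_at were 0.13, -0.31 and -1.24, all with overlap.

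The log2 ratio of ITGB4 to ITGB1, the 2 genes whose products compete for α6, differed by 0.25 from parental cells to NLS-actin cells with overlapping arrays. From WT-actin to NLS-actin cells the ratio differed by 0.57 without overlap (exact permutation p = 0.1, two-sided), and between WT-actin and parental cells by -0.32.

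ITGB5, a partner of αv, was measured by 4 probe sets that agreed within their error. On 214021_x_at the signals were 5407, 5517 and 6784 in parental cells, 7192, 6832 and 6883 in the WT-actin line, and 6422, 5268 and 6255 in NLS-actin cells, so that the WT-actin arrays were the 3 highest by a narrow margin. The 4 log2 fold changes lay between -0.07 and 0.02 for NLS-actin cells against parental cells, between 0.13 and 0.25 for WT-actin cells against parental cells, and between -0.23 and -0.18 when the 2 actin lines were compared. None passed (adjusted p of 0.781 or more by limma).

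ITGB6, the epithelial β6 subunit that binds latent TGF-β, is listed with LINC02478 on all 4 of its probe sets, so the values cannot be given to 1 of the 2 genes. The brightest, 226535_at, gave 1876, 2032 and 1909 in parental cells, 3088, 2233 and 2913 in the WT-actin line, and 1686, 2544 and 1770.1 in NLS-actin cells. WT-actin arrays lay above parental arrays without overlap (log2 fold change 0.49, unadjusted p = 0.0214, adjusted p = 0.781 by limma), and NLS-actin arrays straddled the parental ones (log2 fold change 0.02). The other 3 probe sets had mean signals of 18.8 to 60.2. The ratio of ITGB5 to ITGB6, which had been planned, was not computed for this reason.

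No probe set of the 16 other integrin genes, 45 in all, passed in any comparison (limma, with 1, 0 and 1 at an unadjusted p under 0.05 for NLS-actin against parental, WT-actin against parental and NLS-actin against WT-actin). Over all probe sets 6.36%, 5.98% and 7.85% were at an unadjusted p under 0.05 by limma in these comparisons. ITGAE, the αE subunit that binds E-cadherin, came nearest at 2429, 2302 and 2465 in parental cells, 2079.7, 2083 and 2293 in the WT-actin line and 3083, 2761 and 2795 in NLS-actin cells. The NLS-actin arrays were the 3 highest of the 9, with a log2 fold change of 0.42 against WT-actin cells (adjusted p = 0.363 by limma). The study's thresholds were passed by 1 of the 45 between NLS-actin and parental cells, against 3.6% of all probe sets. It was a probe set of ITGA2B, with group means of 2.21, 5.69 and 15.0 units, far under the array medians.

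Among the ligands, 19 of 23 listed genes were measured by 45 probe sets. Between NLS-actin and WT-actin cells 1 of the 45 passed, against 0.364% of all probe sets. The 1 call was LTBP1, the latent TGF-β binding protein that αv integrins engage indirectly, higher in NLS-actin than in WT-actin cells (log2 fold change 1.58, adjusted p = 0.0407 by limma). Its probe set 202729_s_at averaged 446 ± 123 in parental cells, 154 ± 49.0 in the WT-actin line and 457 ± 121 in NLS-actin cells (SD, n = 3), so WT-actin cells stood apart and the other 2 lines overlapped.

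FN1, whose product fibronectin is bound by α4β1, α5β1 and αv integrins, had no adjusted call against either line without the block. On 216442_x_at the signals were 5050.45, 2929.6 and 4617 in parental cells, 6213, 5634 and 7269 in the WT-actin line, and 3041, 905 and 2727 in NLS-actin cells. NLS-actin arrays were all below the WT-actin arrays and overlapped the parental ones. The log2 fold change was -1.06 against parental cells (adjusted p = 0.604 by limma) and -1.69 against WT-actin cells (adjusted p = 0.0815 by limma). Replicate 2 was the lowest array in all 3 lines, and with the replicate block the value against parental cells passed on this and 2 other FN1 probe sets, and on both of CCN1, a matricellular ligand of αv integrins (adjusted p = 0.0155 on 216442_x_at and 0.0337 to 0.0490 on the other 4 by limma, in the fit of 6 arrays). These were 5 of the 45 ligand probe sets, against 0.835% of all probe sets in that fit. The study's thresholds, without the block, were passed by 4 of the 45 ligand probe sets between NLS-actin and parental cells, all lower (FN1 210495_x_at and 216442_x_at, THBS1 and NID1). Between WT-actin and parental cells 3 passed, all lower, of NID1 and LTBP1. Between the actin lines 8 passed, 6 lower (5 of FN1 and 1 of THBS1) and 2 higher (NID1 and LTBP1). Over all probe sets the shares in these comparisons were 3.6%, 3.2% and 4.67%, in this order.

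LAMB1, a laminin β chain, had its 3 lowest arrays in NLS-actin cells on both probe sets without a call, and on 211651_s_at the group means were 1484 ± 40.9, 1723 ± 309 and 956 ± 185 in the parental, WT-actin and NLS-actin lines (SD, n = 3; log2 fold change against WT-actin cells -0.85, adjusted p = 0.0832 by limma). Median log2 fold changes over the list were -0.28, 0.01 and -0.21 in the comparisons of NLS-actin with parental, WT-actin with parental and NLS-actin with WT-actin cells, against -0.06, -0.11 and 0.03 for all probe sets.

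The cytoplasmic and lateral partners, 29 of 31 listed genes on 95 probe sets, held no call in any comparison (limma, with 6, 8 and 9 probe sets at an unadjusted p under 0.05, against 6.36%, 5.98% and 7.85% of all). Talin-1, kindlin-1, ILK, paxillin, CD151 and CD9, which activate, link or laterally bind integrins, had brightest probe sets that differed from parental cells by at most 0.36 log2 units in either actin line. PARVA, the α-parvin that binds ILK, gave 1351, 761 and 995 in parental cells, 1702, 1905 and 1773 in the WT-actin line and 990.0, 763 and 1191 in NLS-actin cells on 222455_s_at, with a log2 fold change of -0.89 between NLS-actin and WT-actin cells (adjusted p = 0.156 by limma). The study's thresholds were passed by 6 of the 95 between NLS-actin and parental cells, all lower (3 of DAB2, 2 of PARVB and 1 of VCL). Between WT-actin and parental cells 5 passed, 4 lower (2 of PARVB, 1 of TNS1 and 1 of DAB2) and 1 higher (DAB2), and between the actin lines 3 passed, all lower (2 of DAB2 and 1 of VCL). The shares over all probe sets were 3.6%, 3.2% and 4.67%. VCL, encoding vinculin, averaged 7734, 8770 and 8761 on its bright probe set 200931_s_at, while the 200930_s_at that passed was dim, at 16.5, 12.5 and 3.30 units. DAB2, an adaptor for integrin endocytosis, went from 30.6 units in parental cells and 71.1 units in WT-actin cells to 12.4 in NLS-actin cells on 201278_at (log2 fold change -2.47, adjusted p = 0.0625 by limma).

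The trafficking genes, 12 of 13 listed on 32 probe sets, held no call (limma, with 1, 2 and 2 at an unadjusted p under 0.05, against 6.36%, 5.98% and 7.85% of all), and none passed the study's thresholds. RAB21, a small GTPase that carries β1 integrins, had 1 probe set, 239329_at, which averaged 703 ± 124 in NLS-actin cells against 430.3 ± 24.1 in parental cells (SD, n = 3; log2 fold change 0.70, adjusted p = 0.383 by limma), whereas its brightest, 203885_at, changed by -0.03.

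Over the 9 arrays, the 5 genes whose brightest probe set most resembled that of ITGA4 were CREM (Pearson r = 0.990), DDAH1 (0.977), ACAT1 (0.977), FLOT2 (0.970) and TUSC3 (0.970), of 11976 genes above the median level. The 9 arrays fall into 3 lines and share their scaling, so the likeness is mainly that of 3 means. CREM averaged 148 ± 10.9, 174 ± 17.8 and 87.9 ± 9.38, and ACAT1 2777 ± 192, 2958 ± 64.8 and 1566 ± 83.2, in the parental, WT-actin and NLS-actin lines (SD, n = 3). The 5 were chosen for this likeness, so a lower level in NLS-actin cells follows from the choice. Their steps were smaller than that of ITGA4, with log2 fold changes of -0.83 to -0.49 against parental cells. Against WT-actin cells DDAH1, ACAT1 and TUSC3 passed (adjusted p = 0.0387, 0.00949 and 0.0227 by limma), and CREM and FLOT2 did not.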

How the data were processed

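Total RNA of the 3 lines was amplified and hybridized to 9 U133 Plus 2.0 arrays. The deposited values are MAS5 signals from the authors, linear intensities scaled to a trimmed mean of 500.0 on each array, and the version of MAS5 and the genome build are not given in the sources used here. Array annotation was updated by Entrez identifier for 41037 of the 41091 probe sets with 1 symbol. Another 1801 had several symbols and 11721 had none listed, and these were tested without a gene name. No detection calls were used here.

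All 54613 probe sets other than 62 controls entered 1 linear model of log2 signal in limma (version 3.58.1, R version 4.3.3), in which each line had its own mean and variances were moderated along an intensity trend. The Benjamini-Hochberg correction ran over every probe set, and 0.05 was the threshold. The thresholds in the paper's methods (p under 0.05 before correction, more than a 2-fold difference) were applied to the same model. Ratios within an array used exact permutation tests in scipy 1.17.1. The model was tested on simulated data with independent noise on each array. The measured arrays share an axis of deviation that the simulation lacked, so it does not give the error rate of the calls here.

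The replicate numbers were checked on the residuals of probe sets above the median. Same-numbered parental and NLS-actin arrays correlated at 0.150, 0.663 and 0.209, most for replicate 2, which stood apart in both lines. Arrays of unlike numbers were not compared, so a pairing of these 2 lines by number is not established. The block was taken from the data and not from the labels. WT-actin arrays correlated with neither line for all numbers.

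Text was given to every probe set of the integrin genes, with per-array signals for ITGA4, ITGB1, the brightest probe set of each other gene and any that passed. From each pathway list the called members were named and, failing any, up to 4 with the smallest p. FN1, LAMB1, CCN1, THBS1, NID1, PARVB, TNS1, Talin-1, kindlin-1, ILK, paxillin, CD151, CD9, VCL and the second RAB21 probe set were named after their values were seen. The genes and lists were chosen with earlier results of these data known. Alternatives included values per gene, quantile normalization, an offset, a filter, other variance models, replicate blocks, a covariate, the methods' Tukey test and the omission of arrays. Precision is limited by the 3 arrays per line.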

Additional observations from a re-analysis of the deposited data

Results flagged for a closer look

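The changes of the 2 actin lines against parental cells differed for all 4 probe sets of ITGA4, by a limma contrast of the lines. The parental mean cancels in this contrast, so it repeats the comparison of NLS-actin with WT-actin cells given above. The difference between the log2 fold changes of NLS-actin and WT-actin cells was -1.80 on 243366_s_at, -1.85 on 213416_at, -1.60 on 205885_s_at and -2.13 on 205884_at. All 3 NLS-actin arrays were below all 3 WT-actin arrays on each. The 4 probe sets read 1 gene and are not independent. Groups of 3 arrays are too small for a test of single arrays that lie far from the others.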

How the results depend on the processing

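The fall of ITGA4 kept its direction in every alternative run, on all 4 probe sets, in NLS-actin cells against both other lines. On 243366_s_at the value against parental cells passed in 19 of 22 alternatives and ranged from -1.52 to -1.31 when 1 array was left out. Adjusted p values by limma were 0.00105 to 0.173. The p of 0.000282 in the methods' Tukey test, 1 of the 19, is not adjusted over probe sets. The log2 fold change was -1.45 without the intensity trend and then missed the threshold (adjusted p = 0.173 by limma). The probe sets 213416_at, 205885_s_at and 205884_at passed in 7, 6 and 5 of 20 alternatives against parental cells and in 11, 15 and 15 of 19 against WT-actin cells. Each of these counts includes the unadjusted Tukey test.

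The number of integrin probe sets called between NLS-actin cells and parental cells, 3, became 1 with 1 value per gene (brightest or mean, where genes are counted), with quantile normalization, with the GAPDH covariate and with only the 2 lines, 0 without the intensity trend, and 5 with the replicate block within these lines or by the methods' Tukey test, whose p is not adjusted over probe sets. The block raised the calls over all probe sets from 42 to 456, whereas a block over all 9 arrays gave 38 and a block for these lines in a fit of all 9, added after seeing the data, gave 44. Leaving out 1 array gave 0 to 3, with 0 without parental replicate 1 or 3 and 1 without parental replicate 2, NLS-actin replicate 1 or WT-actin replicate 1 or 2. Against WT-actin cells 4 became 1 with 1 value per gene, without the trend and with only the 2 lines, 7 by the Tukey test, and 1 to 4 when 1 array was left out, with 1 without NLS-actin replicate 1 or WT-actin replicate 2. The counts by the study's thresholds in NLS-actin cells became 1 with 1 value per gene, and the 1 between WT-actin and parental cells became 0 with 1 value per gene, the filter, the offset or the Tukey test, and 0 to 1 when 1 array was left out, with 0 without WT-actin replicate 1 or 2 or parental replicate 1 or 3.

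For ITGB1 211945_s_at, the change of NLS-actin cells against parental cells was 0.045 without the 3 arrays and -0.14 to 0.093 with 1 left out. The change of WT-actin cells was -0.056 as the mean of the probe sets, a setting that moved NLS-actin against parental cells from -0.04 to -0.80 (adjusted p = 0.592 by limma) and NLS-actin against WT-actin cells from -0.37 to -0.75 (adjusted p = 0.430 by limma). The value of -0.37 between the actin lines passed 0.05 in the methods' Tukey test.

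Other changes of sign were in values that never passed. Without the 3 arrays, WT-actin against parental was -0.0071 on ITGA4 205885_s_at, -0.060 on 205884_at and -0.015 for ITGAV, and ITGA5 was -0.11 between the actin lines. As means of probe sets, ITGA6 was -0.13, -0.17 and 0.042 and ITGB4 -0.19, -0.18 and -0.010 in the 3 comparisons (NLS-actin with parental, WT-actin with parental, NLS-actin with WT-actin), and ITGB5 was -0.035 in the first. Quantile normalization gave -0.049 for ITGA6 and -0.11 for ITGB5 in the first, and the covariate gave -0.0025 for ITGB4 in the second. With 1 array left out, NLS-actin against parental ranged from -0.15 to 0.046 for ITGA2, -0.0062 to 0.19 for ITGA6 and -0.038 to 0.13 for ITGB5. WT-actin against parental ranged from -0.28 to 0.055 on ITGA4 213416_at, -0.035 to 0.16 on 205885_s_at, -0.12 to 0.20 on 205884_at and -0.10 to 0.17 for ITGB4. ITGA5 ranged from -0.17 to 0.42 between the actin lines.

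For the ratios within an array, means of probe sets gave WT-actin against parental values of -0.12, -0.085 and -0.058 for ITGA4 to ITGA2, ITGA3 and ITGAV, and NLS-actin against parental values of -1.84, -1.41 and -1.40 to ITGA3, ITGA5 and ITGAV and 0.61 for ITGB4 to ITGB1. Quantile normalization gave 0.32 to ITGA2, 0.42 to ITGAV and -0.062 for ITGB4 to ITGB1 in the WT-actin line, and -0.94 to ITGAV in NLS-actin cells. ITGA4 to ITGA6 was -1.43 between the actin lines without the 3 arrays. The causes were not tested. With 3 arrays per line and signals near or below the array median on 4 of 7 ITGB1 probe sets, small changes were not detectable.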
